A study of Bos taurus with 18 samples.

Results

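Bovine cumulus cells that had coasted for 68 h were compared here with cumulus cells that had coasted for 20 h. Coasting is the interval between the last FSH injection and follicle aspiration. The comparison holds 6 of the 18 dual-channel arrays of the series, 3 replicates with 68 h RNA once in Cy5 and once in Cy3, and 11044 genes were tested in it. Each array carried 68 h RNA in one channel and 20 h RNA in the other. Every value below is a log2 ratio of 68 h over 20 h unless it is called a level. A value of 1 is a doubling, and the ratios of both dye orientations were averaged for each replicate.

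The cells came from 6 cycling Holstein dairy cows, about 4 years old, that each went through all 4 coasting times. All cows received 6 injections of 40 mg of FSH, 12 h apart, in the luteal phase, after the dominant follicle had been removed. Follicles measured 6 to 8 mm at 68 h and 3 to 5 mm at 20 h, which means that the effects of time and of follicle size cannot be told apart. The labels do not say which cows went into which replicate, and the p-values measure only the spread between these samples. Cumulus cells are the granulosa-derived cells that enclose the oocyte, feed it through gap junctions and hold it in meiotic arrest. FSH drives their proliferation and steroid synthesis, and a follicle deprived of FSH either goes on toward ovulation under LH or regresses. At the LH surge cumulus cells stop dividing and secrete a matrix of hyaluronan, in which the proteoglycan versican is embedded.

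The share of gene probes above background lay between 26.5 and 66.2% in the 68 h channel and between 51.9 and 67.3% in the 20 h channel. The lowest share belonged to the replicate 2 array with 68 h in Cy5, and the other 5 arrays had at least 52.0% in that channel. Between replicates the ratios correlated across genes with r of 0.14 (replicates 1 and 2), 0.49 (1 and 3) and 0.26 (2 and 3). Genes are not independent replicates in these values, and precision is limited by how few arrays there are. Of 16 genes that mark cumulus and granulosa cells, FSHR among them, 16 were tested, and 13 were above background on all 6 arrays in the 68 h channel and 13 in the 20 h channel. Replicate 2 spread most, with a standard deviation across genes of 0.44, against 0.29 in replicate 1 and 0.29 in replicate 3.

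No gene passed an adjusted p of 0.05 in limma (0.00% of those tested), and the smallest adjusted p was 0.0713. Fitted from the 68 h values alone, the smallest was 0.172. Leaving out 1 replicate of any coasting time gave 0 to 21 genes, the most without replicate 2 of 44 h. An unadjusted p under 0.05 was reached by 1217 genes (11.0%), of which 661 had a higher ratio at 68 h (5.99%) and 556 a lower one (5.03%), where 552 in all would pass by chance. The ratio was above 0 in 49.2% of genes and below 0 in 50.8%, with a median of -0.00 and 5th and 95th percentiles of -0.44 and 0.40. All 3 replicates had a ratio above 0 in 21.8% of genes and below 0 in 21.1%. All 6 arrays had it above 0 in 6.27% and below 0 in 7.11%. Large differences of 1 sign were few: 10 genes were at least 2-fold higher at 68 h in the mean and above 0 in all replicates, and 26 were at least 2-fold lower and below 0 in all. In what follows, no named gene passed the adjusted threshold, and values describe how the ratios lay. Every count of list members at an unadjusted p under 0.05 stands against these shares of all genes, 5.99% higher and 5.03% lower. In such bulk samples fewer cells of a type and less RNA per cell cannot be told apart.

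The lowest ratio of all genes was that of VCAN, which encodes versican. It read -1.79, -1.84 and -1.51 in replicates 1, 2 and 3. The 6 arrays lay between -2.18 and -1.35, and in each replicate the array with 68 h in Cy5 was the lower one. The mean was -1.71 ± 0.18 (SD, n = 3 here and for every gene below), a ratio of 0.305 to 1. Its level was 9.47, 10.85 and 9.28 log2 units at 68 h (mean 9.87 ± 0.85) and 11.26, 12.69 and 10.79 at 20 h (mean 11.58 ± 0.99). Each replicate was lower at 68 h, while the ranges of both groups touched through replicate 2 at 68 h and replicate 3 at 20 h. The unadjusted p was 0.0182 and the adjusted p in limma 0.336, in a fit whose variance is pooled with the arrays of 44 and 92 h.

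PDIA3, a disulfide isomerase that folds glycoproteins in the endoplasmic reticulum, had the next lowest ratio among genes with 1 sign on all arrays. It read -2.19, -1.18 and -1.62 in the 3 replicates (mean -1.66 ± 0.51, adjusted p = 0.151 in limma). JPT1 read -1.17, -2.64 and -1.12, so replicate 2 stood apart, and a second probe of it read -0.32. RGS4, which shortens signalling by G protein-coupled receptors, read -0.58, -1.88 and -1.52, while a second probe of it read -0.00. IGF2R, the receptor that clears IGF2 and sorts lysosomal enzymes, read -1.39, -1.50 and -0.92. Its 6 arrays lay between -1.50 and -0.80. CENPF, a kinetochore protein gene, read -1.15, -1.36 and -1.06. GLUL, glutamine synthetase, read -0.66, -1.46 and -1.33, with a mean of -1.15 ± 0.43. CMTM4, a gene of the MARVEL domain family, read -1.15 ± 0.21 by its brightest probe and 0.02 by the other, so its probes disagreed. USP22, a deubiquitinase of the SAGA complex, read -1.09 ± 0.38.

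The highest ratio of all genes was that of STX4, a syntaxin that docks vesicles at the plasma membrane. It read 1.73 and 1.88 in replicate 1, 1.44 and 1.56 in replicate 2 and 1.37 and 1.41 in replicate 3, with 68 h in Cy5 first. Both orientations of each replicate nearly coincided, and the mean was 1.56 ± 0.22 (2.96-fold, adjusted p = 0.105 in limma). Its level averaged 9.89 ± 0.10 log2 units at 68 h and 8.33 ± 0.17 at 20 h, so the groups did not overlap. FNDC3B, a gene for a fibronectin type III membrane protein, read 0.67, 2.14 and 1.31, but its other probes went down to 0.04. RNASEK, an endoribonuclease linked to the proton pump of endosomes, read 0.85, 1.78 and 1.39. DLL4, a ligand of Notch receptors, read 0.81, 1.64 and 0.86. In both of these genes replicate 2 was the highest. The remaining genes among the 12 highest ratios with 1 sign on all arrays were RPL28 (1.07), PYM1 (1.04), RPL31 (1.02), ACOT13 (0.93), ZKSCAN1 (0.91), ZNF397 (0.90), TMEM258 (0.89) and KLHL24 (0.87). They include the ribosomal protein genes RPL28 and RPL31, the acyl-CoA thioesterase gene ACOT13 and the zinc finger genes ZKSCAN1 and ZNF397. The other probes read 0.14 for ACOT13 and 0.78 and 0.43 for RPL28. ZKSCAN1 was close to background, detected above background on 5 of the 6 arrays in the 68 h channel and 3 in the 20 h channel.

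**Figure D1:**
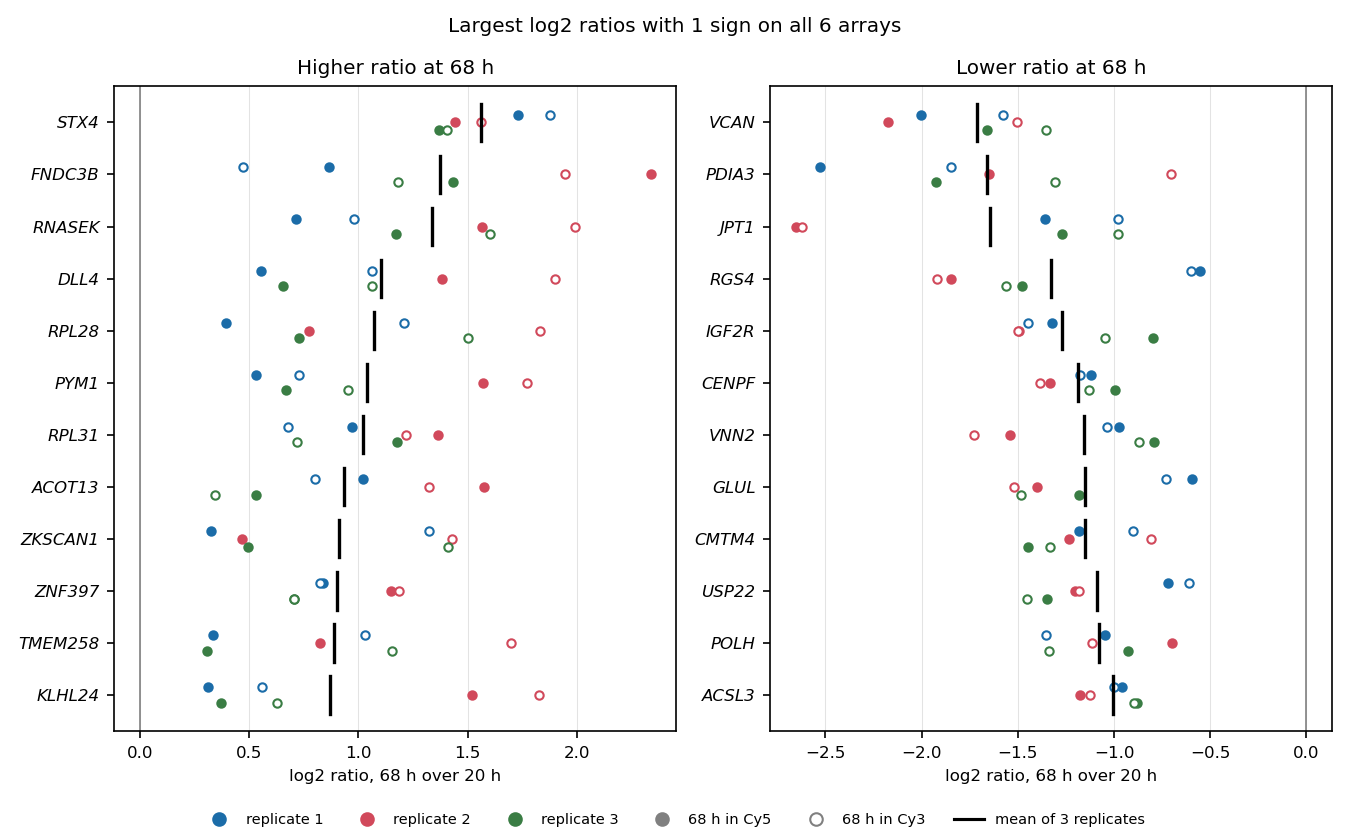
The 12 highest (left panel) and 12 lowest (right panel) log2 ratios of 68 h over 20 h among genes with 1 sign on all 6 arrays and an unadjusted p under 0.05. Each point is an array, filled with 68 h in Cy5 and open with 68 h in Cy3, coloured by replicate, and the bar is the mean of 3 replicates. STX4 at 1.56 and VCAN at -1.71 have all 6 arrays far from 0, while FNDC3B and JPT1 have replicate 2 apart from the others.

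Genes of smallest p mostly had smaller ratios than those above, and their replicates lay close together, which a ranking by p favours. At an adjusted p under 0.10 in limma there were 20 genes, 12 with a higher ratio at 68 h (0.109%) and 8 with a lower one (0.0724%), and 19 of the 20 had 1 sign on all 6 arrays. Among the higher ones were CCN3, GOLPH3L, EMP2 and ROBO1. CCN3, a matricellular protein gene, read 0.70, 0.65, 0.58, 0.55, 0.55 and 0.64 on the 6 arrays. Its mean was 0.61 ± 0.06 (1.53-fold, adjusted p = 0.0713), and its level averaged 8.82 ± 0.22 log2 units at 68 h and 8.21 ± 0.16 at 20 h. GOLPH3L, which acts in Golgi trafficking, read 0.63, 0.44 and 0.46. EMP2, a tetraspan membrane protein gene, read 0.62, 0.79 and 0.99, and ROBO1, a receptor of SLIT ligands, 0.55, 0.65 and 0.46. In EMP2 the dye orientations differed, with 0.23, 0.30 and 0.58 for 68 h in Cy5 and 1.00, 1.27 and 1.41 for 68 h in Cy3. The phospholipase genes PLA2G1B and PLA2G16 both averaged 0.43, with SDs of 0.13 and 0.09. RPL29, a ribosomal protein gene, read 0.81 ± 0.21. The other 5 of the 12 carry only placeholder names, LOC100297334 (0.43), LOC784773 (0.51), LOC783399 (0.88), LOC515042 (0.63) and LOC100295855 (0.65).

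GCH1, which makes the first intermediate of tetrahydrobiopterin, led the lower genes together with LRCH4, POLH, ACSL3 and VNN2. GCH1 read -0.63 and -0.72, -0.93 and -1.04, and -0.91 and -1.09 in the 3 replicates, with 68 h in Cy5 first. All arrays lay on the same side at similar values (mean -0.88 ± 0.18, adjusted p = 0.0728 in limma). This held for the brightest of its 4 probes, while the others read -0.30, -0.10 and -0.04. POLH, the polymerase that copies past ultraviolet lesions, read -1.20, -0.91 and -1.13. ACSL3, which activates fatty acids at lipid droplets, read -0.98, -1.15 and -0.89, and its probes ranged from -1.01 to -0.21. VNN2, a pantetheinase that releases cysteamine from pantetheine, read -1.01, -1.64 and -0.83. Its level averaged 10.94 ± 0.45 log2 units at 68 h and 12.10 ± 0.13 at 20 h. LRCH4, a leucine-rich repeat membrane protein gene, read -0.66 ± 0.14, with its other probe at -0.29. CENPW, a centromere protein gene, read -0.51 ± 0.09, MRPS27, a mitochondrial ribosomal protein gene, -0.71 ± 0.22, and NSF, the ATPase that recycles SNARE complexes, -0.31 ± 0.04. In CENPW, MRPS27 and LRCH4 the arrays with 68 h in Cy3 were the lower ones. Just beyond this threshold lay NCAPG2, a condensin subunit gene (-0.66), the arrestin ARRDC4 (-0.83, with its other probe at 0.07) and DNAJB11, a chaperone of the endoplasmic reticulum (-0.54), each with an adjusted p of 0.108.

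**Figure D2:**
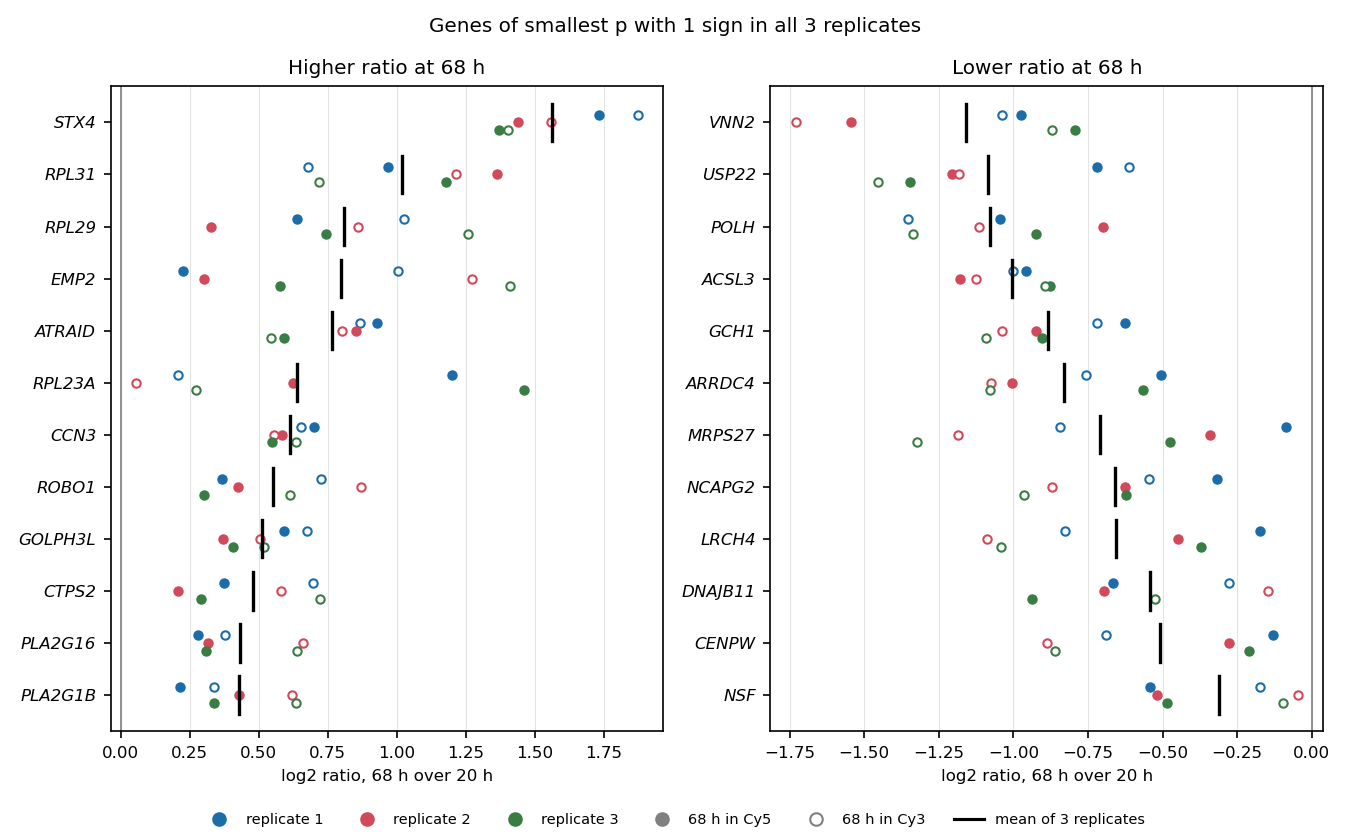
The 12 genes of smallest p in each direction among those with 1 sign in all 3 replicates, as log2 ratios of 68 h over 20 h, with placeholder names left out. Points are single arrays, filled with 68 h in Cy5 and open with 68 h in Cy3, and bars are means of 3 replicates. CCN3, GOLPH3L and ACSL3 have tight arrays, whereas open and filled points separate in EMP2, RPL23A, MRPS27 and CENPW.

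Genes of cell division read lower at 68 h almost throughout. In the mitosis list, 35 of 37 tested genes (94.6%) had a ratio below 0, against 50.8% of all genes, with a median of -0.49 against -0.00. At an unadjusted p under 0.05, 15 were lower and 1 was higher, where 5.03% of all genes were lower and 5.99% higher. On all 6 arrays 14 were below 0, against 7.11% of all genes. The medians were -0.22, -0.85 and -0.26 in replicates 1, 2 and 3, so all replicates were below 0 and replicate 2 was by far the lowest. Replicate 2 had the lowest ratio in 33 of the 37 genes, against 44.2% of all genes, and without it the list's median was -0.24.

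Among regulators of entry, CCNB1, cyclin B1, read -0.55, -1.73 and -0.51, and CDK1, its kinase, -0.38, -1.42 and -0.47. In CCNB1 the level was 12.49, 12.02 and 12.70 log2 units at 68 h and 13.04, 13.75 and 13.21 at 20 h. All 3 levels of CCNB1 at 68 h were thus below all 3 at 20 h. KIF11, a spindle motor, read -0.54, -1.28 and -0.39, and NUSAP1, which bundles spindle microtubules, -0.26, -1.23 and -0.53, with its other probe at -0.05. BUB1B, a checkpoint kinase gene, read -0.40, -1.05 and -0.52, and DLGAP5, a spindle assembly factor, -0.35, -0.85 and -0.32. PTTG1, the securin that holds back chromatid separation, averaged -0.59, and UBE2C, the ubiquitin-conjugating enzyme of anaphase, -0.18, with 0.29 over arrays with 68 h in Cy3. The genes above 0 were PLK1 (0.09), a mitotic kinase and the 1 higher gene at that p, and MKI67 (0.03), the gene of the proliferation antigen Ki-67. Both were close to background, PLK1 exceeding it on 3 of the 6 arrays in each channel and MKI67 on 4 at 68 h and 6 at 20 h. PLK1 read -0.15 over arrays with 68 h in Cy5.

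DNA replication genes followed with a smaller shift. Of 32 tested, 25 (78.1%) read below 0, against 50.8% of all genes, and the median was -0.37. At an unadjusted p under 0.05, 10 were lower and 0 higher, where 5.03% of all genes were lower and 5.99% higher. Medians of replicates 1, 2 and 3 were -0.20, -0.62 and -0.15, and the list's median without replicate 2 was -0.17. RRM1, a subunit of ribonucleotide reductase, read lower on every array, at -0.51 and -0.53, -0.80 and -0.78, and -0.74 and -0.68 with 68 h in Cy5 first in each replicate (mean -0.67 ± 0.14, adjusted p = 0.166 in limma). TYMS, thymidylate synthase, read -0.40, -0.38 and -0.60, with another of its probes at -0.01. RFC4, of the clamp loader, read -0.45, -1.22 and -0.71. PCNA, the sliding clamp, read -0.32, -1.26 and -0.48, and its 4 probes lay between -0.82 and -0.53. CDT1 (0.21), which licenses origins, and RFC5 (0.13), of the same clamp loader as RFC4, were highest in the list. Over arrays with 68 h in Cy5 they read -0.38 and -0.055. CDT1 was also dim, with levels of 8.14, 8.01 and 8.13 log2 units at 68 h and 7.76, 8.05 and 7.86 at 20 h.

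**Figure D3:**
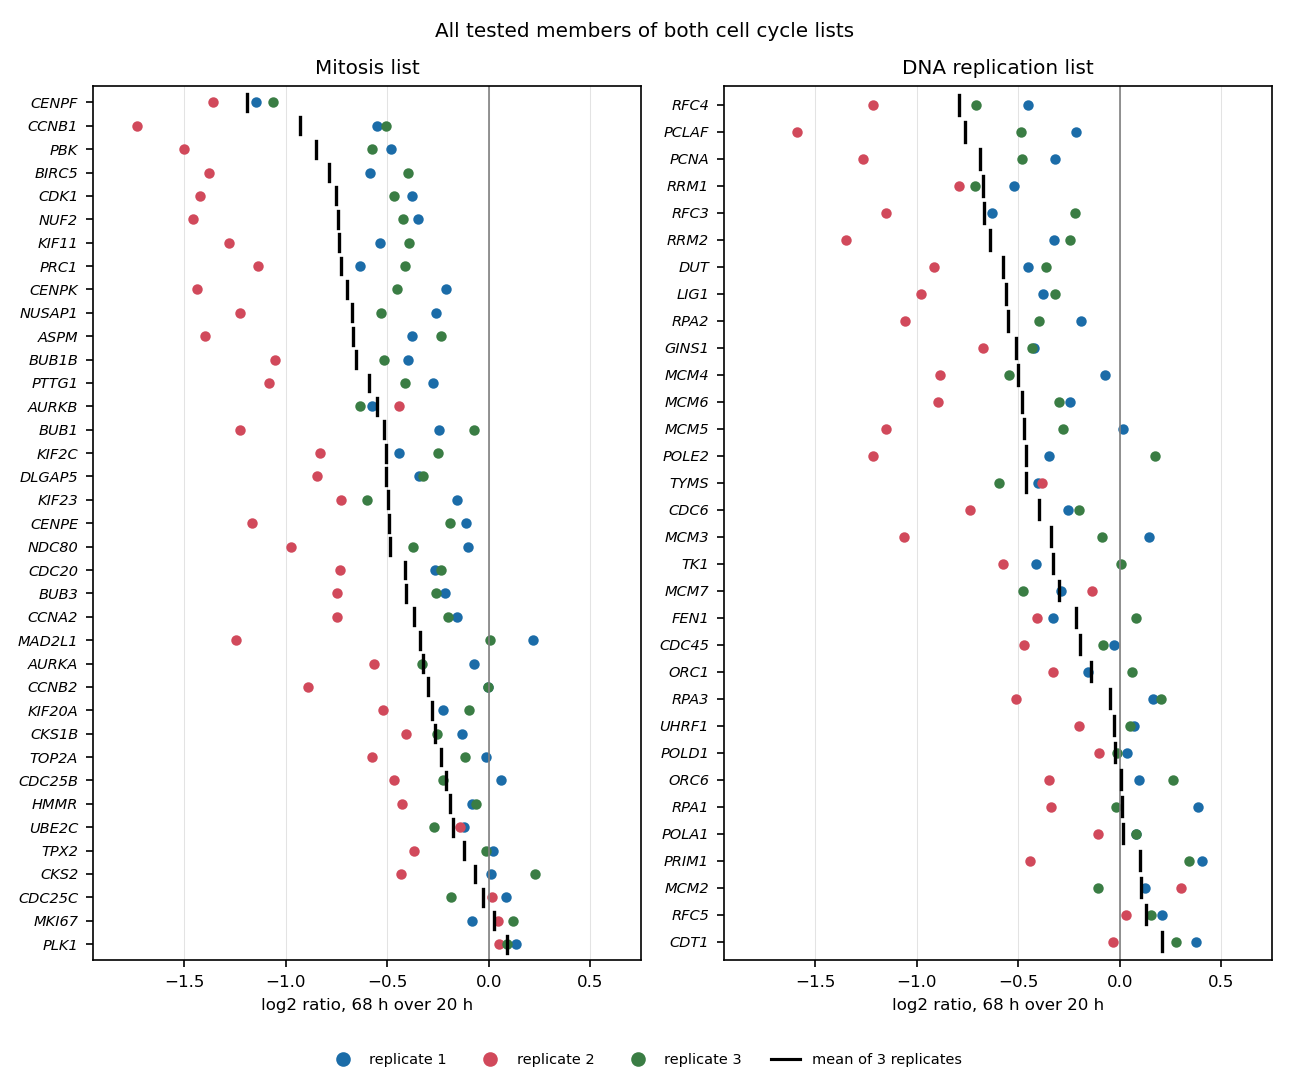
Log2 ratios of 68 h over 20 h for all 37 tested genes of mitosis (left) and all 32 tested genes of DNA replication (right), ordered by their mean. Points are replicates and bars are means of 3 replicates. Most points of all replicates lie left of 0, and replicate 2 is the lowest in 33 of 37 and 29 of 32 genes.

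Protein folding genes also read mostly lower at 68 h. In the endoplasmic reticulum list 17 of 21 tested genes were below 0 (81.0%, against 50.8% of all genes), with a median of -0.24. At an unadjusted p under 0.05, 5 were lower and 0 higher, where 5.03% of all genes were lower and 5.99% higher. Besides PDIA3, PDIA6, another disulfide isomerase, read -0.56, -0.73 and -0.41, with its 3 probes between -0.80 and -0.57, but 0.12 over arrays with 68 h in Cy5. HSP90B1, the chaperone of secreted and membrane proteins, read -0.70, -0.67 and -0.49, but its other probe read -0.05. HSPA5, the chaperone that senses unfolded protein, read -0.44, -0.94 and -0.82. Of 21 genes for heat shock proteins and cytosolic chaperones 20 were below 0 (95.2%, median -0.25), and 2 were lower at an unadjusted p under 0.05, the chaperonin subunits TCP1 (-0.42 ± 0.11) and CCT5 (-0.66 ± 0.39). Of 28 proteasome genes 20 were below 0 (71.4%), the median was -0.19, and 4 were lower and 0 higher at that p. PSMD7 read -0.41 ± 0.19, PSMD12 -0.31 ± 0.14, PSMD14 -0.53 ± 0.06 and PSMC1 -0.84 ± 0.74. The medians of these 3 lists were below 0 in each replicate, from -0.15 to -0.44.

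Cytosolic ribosomal proteins were the list with the highest median. Of 39 tested genes 33 (84.6%) read above 0, against 49.2% of all genes, with a median of 0.18 and medians of 0.25, 0.34 and 0.22 in the replicates. At an unadjusted p under 0.05, 6 were higher and 0 lower, where 5.99% of all genes were higher and 5.03% lower. The direction depended on the dye, since the median was 0.41 over arrays with 68 h in Cy5 and -0.07 over those with 68 h in Cy3. RPS7 read 0.70, 0.71 and 0.71, nearly the same in each replicate, with its other probe at 0.49. RPS16 read 0.63, 1.32 and 0.53 and RPL37 0.36, 0.25 and 0.34, though over arrays with 68 h in Cy3 they averaged -0.45 and -0.04. RPLP2 read 0.30, 0.35 and 0.70. RPL11, a free ribosomal protein that can bind MDM2, read 0.66, 0.61 and 0.82. RPS10 lay lowest, at -0.59, with -1.46 in replicate 2. Ribosomal protein genes have many near-identical copies in mammalian genomes, so a probe may report more than the named gene. Translation factors had a median of 0.03 over 25 genes, with 0 higher and 2 lower at an unadjusted p under 0.05, EIF3B (-0.73 ± 0.22) and EIF4G2 (-0.33 ± 0.19, with 0.38 over arrays with 68 h in Cy5). The initiation helicase EIF4A2 read -1.21, -0.28 and -1.69.

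**Figure D4:**
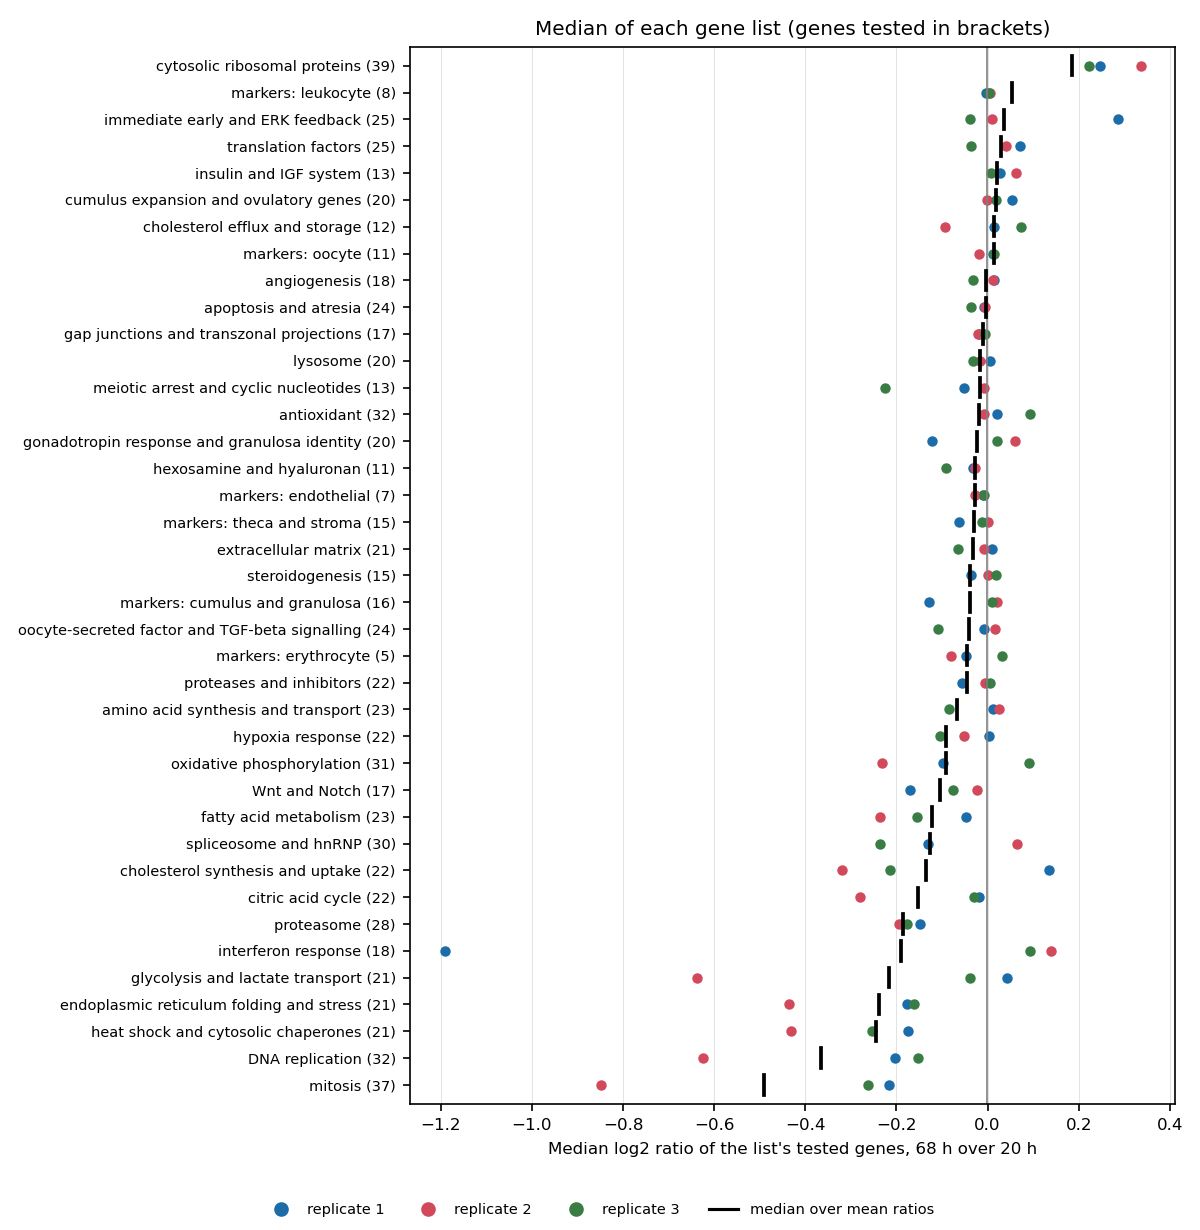
Median log2 ratio of 68 h over 20 h for each of the 39 gene lists, with the number of genes tested in brackets. Points are medians within replicates 1, 2 and 3, the bar is the median over the genes' mean ratios, and the vertical line is the median of all genes. Mitosis at -0.49 and DNA replication at -0.37 are lowest, ribosomal proteins at 0.18 are highest, and the interferon list has replicate 1 alone at -1.19.

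Genes of lipid metabolism read lower in part. Of 23 fatty acid genes 18 were below 0 (78.3%, against 50.8% of all genes), and the median was -0.12. At an unadjusted p under 0.05, 7 were lower, where 5.03% of all genes were, and 0 were higher. SCD, which desaturates stearate, read -0.50, -0.91 and -0.29 (0.01 over arrays with 68 h in Cy5), and ACADL, which begins the oxidation of long chains, -0.13, -0.38 and -0.16. ACSL1, an acyl-CoA synthetase like ACSL3, read -0.12 ± 0.06 (0.08 over arrays with 68 h in Cy5), far smaller than the -1.01 ± 0.13 of ACSL3.

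Sterol synthesis divided the replicates. The list's medians were 0.14 in replicate 1, -0.32 in replicate 2 and -0.21 in replicate 3, and the median of the mean ratios was -0.14 over 22 genes. In 12 of the 22 (54.5%) replicate 1 was above 0 while both others were below, a pattern found in 9.82% of all genes. INSIG1, which retains the sterol sensor in the endoplasmic reticulum and is itself sterol-regulated, read 0.03, -2.21 and -1.85. HMGCS1, which makes HMG-CoA, read 0.01, -0.62 and -1.04, and SQLE, squalene epoxidase, 0.13, -0.76 and -1.08. IDI1, isopentenyl diphosphate isomerase, read 0.07, -0.70 and -1.12, and SC5D, a late desaturase, 0.18, -0.75 and -1.12. The level of INSIG1 was 11.14, 10.77 and 10.70 log2 units at 68 h in replicates 1, 2 and 3, and 11.11, 12.98 and 12.56 at 20 h. The replicates thus lay close together at 68 h and apart at 20 h. DHCR7, the last enzyme of the pathway, read -0.35, -0.83 and -0.74, and SREBF1, a transcription factor of lipid synthesis, -0.61, -0.62 and -0.42. These were the 2 genes of the list with an unadjusted p under 0.05 and were lower in all replicates. Among 12 genes of sterol efflux and storage, APOE, a lipoprotein component, read 0.80, 0.82 and 0.47 (mean 0.70 ± 0.20, adjusted p = 0.108 in limma), though its 3 probes ranged from 0.11 to 0.70. NPC2, which hands cholesterol out of lysosomes, read 0.72, 0.43 and 0.33, and its partner NPC1 read -0.56, -0.51 and -0.25. The median of that list was 0.01.

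Glycolysis genes were below 0 in 16 of 21 cases, with a median of -0.22 that came from replicate 2 (medians 0.04, -0.64 and -0.04). PGAM1, phosphoglycerate mutase, read -0.41, -0.77 and -0.28, and SLC16A1, a carrier of lactate and pyruvate, -0.14, -0.70 and -0.75, with another probe at -0.03. LDHA, lactate dehydrogenase A, read -0.25, -1.08 and -0.04, and 0.26 over arrays with 68 h in Cy5. The citric acid cycle list had a median of -0.15 over 22 genes, with 1 higher and 3 lower at an unadjusted p under 0.05. CS, citrate synthase, was the higher one at 0.26 ± 0.10, with other probes at -0.00 and -0.10, while FH, fumarase, read -0.44 ± 0.09 and IDH3A, an isocitrate dehydrogenase subunit, -0.47 ± 0.09. Oxidative phosphorylation had a median of -0.09 over 31 genes, 1 of them higher and 3 lower at that p. ATP5PB, of the ATP synthase stalk, read -0.77, -0.45 and -0.78, CYCS, cytochrome c, -0.89, -0.34 and -0.36, and COX5B, of cytochrome oxidase, 0.31, 0.13 and 0.46. The other ATP5PB probe read -0.17.

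Genes that define the granulosa lineage were mixed, some near 0, some of opposite sign between replicates, and INHA and SERPINE2 below 0 in all replicates. FSHR, the receptor for FSH, read -0.11, -0.03 and 0.05 (mean -0.03 ± 0.08, adjusted p = 0.976 in limma). CYP19A1, the aromatase that makes oestradiol, read -1.80, 0.73 and -0.12. Its level was 9.33, 9.09 and 10.12 log2 units at 68 h and 11.13, 8.36 and 10.24 at 20 h, so the ratios differed mostly through the 20 h samples. INHBA, a subunit of activin and inhibin, read -0.50, 1.63 and 1.07. Its arrays with 68 h in Cy5 read 0.61, 3.08 and 2.11, and those with it in Cy3 -1.60, 0.18 and 0.02. FST, an activin-binding protein gene, read -1.01, 1.34 and -0.48, and CCND2, the cyclin that FSH induces in granulosa cells, -0.11, 2.44 and 0.63. In CCND2 the level was 13.85, 14.20 and 14.17 at 68 h and 13.96, 11.76 and 13.54 at 20 h, with replicate 2 apart at 20 h. GATA4, a lineage transcription factor, read -1.23, 0.78 and -1.08, AMH, anti-Müllerian hormone, 0.16, -1.05 and 0.47, and INHA -0.68, -0.35 and -0.12. The transcription factor genes NR5A2, FOXL2 and ESR2 averaged -0.14, -0.02 and 0.07, although the probes of NR5A2 ranged from -0.37 to 0.19. FOXL2 was close to background, exceeding it on 3 of the 6 arrays in each channel. ESR2 was dim, with levels of 8.13, 8.06 and 8.21 log2 units at 68 h and 8.05, 8.04 and 8.09 at 20 h. For such probes a ratio near 0 says little about the gene. SERPINE2, a protease inhibitor of granulosa cells, averaged -0.56 ± 0.07, but its arrays with 68 h in Cy5 read 0.18, 0.08 and 0.56 and those with it in Cy3 -1.45, -1.19 and -1.54.

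In the steroid synthesis list, 4 of 15 tested genes were above 0 in all 3 replicates and 2 below, against 21.8 and 21.1% of all genes. CYP11A1, which cleaves the side chain of cholesterol, read -1.13, -2.19 and 0.38. HSD3B1, which makes progesterone, read -0.35, -0.57 and -0.03, and STAR, the mitochondrial cholesterol carrier, -0.27, -0.02 and 0.18. HSD17B11, a hydroxysteroid dehydrogenase, was the highest of the list at 0.59, 0.17 and 0.70. In limma 0 of these 15 genes had an unadjusted p under 0.05, and the median was -0.04. In the list of gonadotropin response and granulosa identity, 1 of 20 was higher and 1 lower at that p, against 5.99 and 5.03% of all genes. These were NR5A1 (0.12 ± 0.04, with -0.16 over arrays with 68 h in Cy5) and SERPINE2, and the list's median was -0.02. NR5A1 was dim, with levels of 7.96, 7.90 and 7.97 log2 units at 68 h and 7.83, 7.83 and 7.82 at 20 h.

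Among the other cumulus expansion genes several were close to background, and 6 of the 20 tested were above it in both channels of all arrays. HAS2, the hyaluronan synthase, read -0.03, -0.02 and -0.09, GREM1, a BMP antagonist, 0.00, 0.06 and 0.02, and PTX3, which cross-links the matrix, -0.22, -0.04 and -0.02. The levels of HAS2, GREM1 and PTX3 averaged 7.91, 8.08 and 8.00 log2 units at 68 h and 7.96, 8.05 and 8.10 at 20 h, and they exceeded background on 3, 4 and 5 arrays at 68 h and on 5, 6 and 6 at 20 h. At such levels a small ratio says little about the gene. TNFAIP6, a hyaluronan-binding protein gene, read -0.85, 0.05 and -0.02 and exceeded background on 4 of the 6 arrays in the 68 h channel and 2 in the 20 h channel. PGR, the progesterone receptor, read 0.17, -0.18 and 0.43. CEBPD, a transcription factor of the ovulatory response, read 0.63, 2.07 and 0.22 by its brightest probe and 0.14 by the other. ADAM17, the sheddase of EGF-like ligands, read -0.54, -0.20 and -0.87, with another probe at -0.02. In the list of 20 tested, 1 was higher and 2 were lower at an unadjusted p under 0.05, with a median of 0.02. LHCGR and PTGS2 were not well above background on any of the 6 arrays at 68 h, and AREG was so on 1 of them; LHCGR was so on 2 at 20 h, PTGS2 and AREG on 0.

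**Figure D5:**
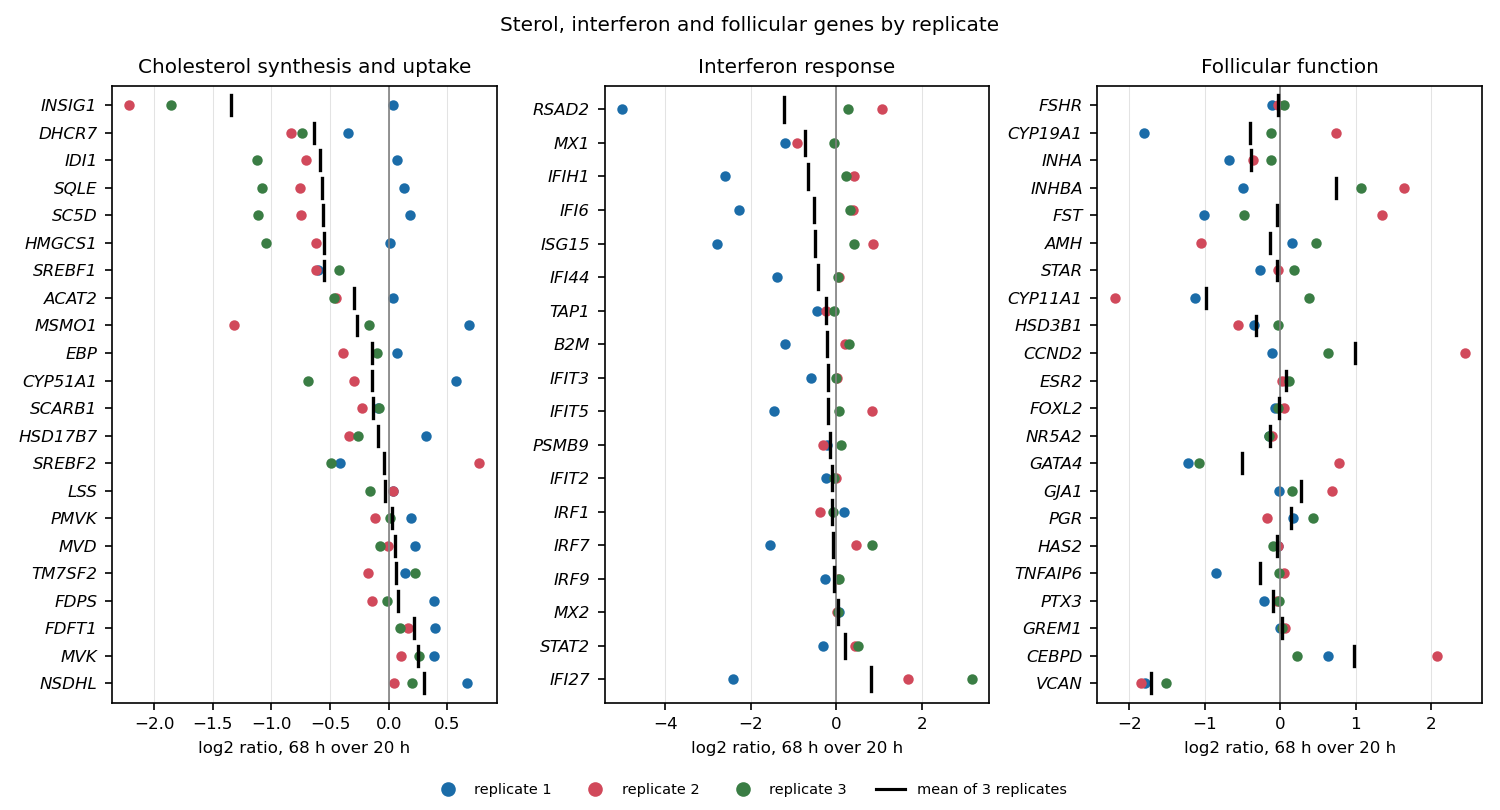
Log2 ratios of 68 h over 20 h by replicate for all tested genes of cholesterol synthesis and uptake (left), all tested interferon response genes (middle) and 22 genes of follicular function (right). Points are replicates and bars their means. Replicate 1 lies right of the others for most sterol genes and far left for RSAD2, ISG15 and IFI27, and VCAN has 3 low replicates, at -1.79, -1.84 and -1.51.

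Interferon response genes set replicate 1 apart. The medians of 18 tested genes were -1.19 in replicate 1, 0.14 in replicate 2 and 0.09 in replicate 3, with -0.19 for the means, and at an unadjusted p under 0.05, 1 was lower and 0 higher. In 11 of the 18 (61.1%) replicate 1 was below 0 and both others above, a pattern found in 6.58% of all genes. RSAD2, an antiviral enzyme, read -5.01, 1.06 and 0.26, and ISG15, a ubiquitin-like protein, -2.78, 0.87 and 0.40. The level of RSAD2 was 8.13, 8.90 and 7.92 log2 units at 68 h in replicates 1, 2 and 3, and 13.14, 7.84 and 7.66 at 20 h. For ISG15 it was 8.92, 8.76 and 8.24 at 68 h and 11.70, 7.89 and 7.84 at 20 h. In both genes the 20 h sample of replicate 1 was the high one, and the 68 h samples lay close together. The SD over replicates was larger at 20 h than at 68 h in 17 of the 18 genes (94.4%), against 50.2% of all genes.

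Communication with the oocyte was sampled through several lists. In the list of gap junctions and transzonal projections, the cell extensions that reach the oocyte, the median was -0.01 over 17 genes. DIAPH3, a formin that nucleates actin filaments, read -0.34, -0.76 and -0.51 with its 3 probes between -0.58 and -0.50, and EZR, an actin-membrane linker, 0.08, 0.45 and 0.13. GJA1, connexin 43, read -0.02, 0.69 and 0.16. Among genes that keep the oocyte in meiotic arrest, NPR2, the receptor that makes cyclic GMP, read -0.21, 0.24 and 0.04. PRKAR1A, a regulatory subunit of protein kinase A, was even at -0.89, -1.04 and -0.80 (unadjusted p = 0.0572 in limma). The median of that list was -0.02 over 13 genes, 0 of them with an unadjusted p under 0.05. Among receptors and mediators of TGF-beta family signals, BMPR2, the type II receptor used by oocyte factors, read 0.64, 0.36 and 0.17, and the list's median was -0.04 over 24 genes.

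Amino acid genes had a median of -0.07 over 23, with 3 lower and 0 higher at an unadjusted p under 0.05. Besides GLUL these were SLC1A4, a carrier of neutral amino acids (-0.66, -0.64 and -0.68), and GOT1, aspartate aminotransferase (-0.36, -0.30 and -0.22). The second SLC1A4 probe read -0.14. GATM, of creatine synthesis, read 0.91, 1.09 and 0.21. Of 32 antioxidant genes 3 were higher and 1 lower at that p, with a median of -0.02. GPX3, a secreted glutathione peroxidase, read 0.63, 1.06 and 0.74, HMOX1, heme oxygenase, 0.36, 0.81 and 0.60, and GSTA1, a glutathione transferase, 0.95, 0.43 and 0.24. VNN1, a paralogue of VNN2, read 0.97, 1.73 and 0.02, so both vanins lay on opposite sides of 0 in the mean.

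Genes of the signalling lists differed in how even their replicates were. MYC, a growth regulator among the immediate early genes, read 0.53, 0.83 and 0.53, and that list had a median of 0.04 over 25 genes, 2 higher and 0 lower at an unadjusted p under 0.05. ANGPT2, an angiopoietin, read 0.89, 1.49 and 0.23, and NRP1, a co-receptor of VEGF, 0.22, 1.53 and 1.16, with its other probe at 0.12. VEGFA read -0.42, 0.01 and -0.65. The hypoxia list had a median of -0.09 over 22 genes with 2 lower and 0 higher at that p, the oxygen sensor EGLN3 (-0.32, -0.75 and -1.20) and P4HA2, a collagen prolyl hydroxylase (-0.48, -0.78 and -0.77). The other probes of P4HA2 read -0.01 and -0.02. In the lysosome list LIPA, the acid lipase, read -0.68, -0.46 and -0.69 and ATP6V1A, of the proton pump, -0.45, -0.69 and -0.52, with its other probes at -0.01 and 0.05. Among splicing genes SNRPD2 and HNRNPA1 read 0.66 ± 0.19 and 0.55 ± 0.10, while SRSF3 and HNRNPD read -0.29 ± 0.11 and -0.43 ± 0.27. The other HNRNPD probe read -0.04.

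The medians not given above were 0.02 for the IGF system, -0.00 for angiogenesis, -0.03 for extracellular matrix, -0.04 for proteases and inhibitors, -0.00 for apoptosis and atresia, -0.10 for Wnt and Notch, -0.02 for the lysosome, -0.13 for the spliceosome and hnRNP list and -0.03 for hexosamine and hyaluronan. At an unadjusted p under 0.05, 3 spliceosome and hnRNP genes were higher and 3 lower of 30 tested, and 1 protease or inhibitor gene was higher and 3 lower of 22. Each of the other lists named here had at most 3 such genes in all. In the Wnt and Notch list 14 of 17 tested genes were below 0 (82.4%, against 50.8% of all genes). All 3 replicates were below 0 in 7 of them, against 21.1% of all genes. At an unadjusted p under 0.05, 1 was lower and 0 higher. DLL4 was not in that list. In the apoptosis list GADD45A, a stress-induced growth arrest gene, read -0.94, -0.52 and -2.67, with its second probe at 0.01. LUM, lumican, a gene of the matrix list and of the theca and stroma markers, read -1.58, -1.42 and -0.27. Medians of marker lists for cumulus and granulosa, oocyte, theca and stroma, leukocyte, endothelial and erythrocyte genes were -0.04, 0.01, -0.03, 0.05, -0.03 and -0.04. GDF9, DAZL and NLRP5 of the oocyte, PECAM1 and KDR of the endothelium and CD4 and CSF1R of leukocytes were not well above background on any of the 6 arrays in either channel. Other markers did exceed background on all arrays at 20 h. These were 8 of 20 oocyte, 4 of 18 leukocyte, 2 of 13 endothelial and 3 of 13 erythrocyte genes. At 68 h the counts were 2 (KPNA7 and KIT), 1 (CXCR4), 0 and 0. Counts over all arrays at 68 h are limited by the replicate 2 array with 26.5% of gene probes above background. Of the genes counted only at 20 h, BTG4, CD3E, CD8A and SLC4A1 exceeded background on 4 of the 6 arrays at 68 h. The others, ZP3, FIGLA, H1-8, MOS, RGS2, PTPRC, ERG, ROBO4, HBA and AHSP, did so on 5. The lower counts thus do not show that these RNAs were scarcer at 68 h. The oocyte genes H1-8 (-0.11, with another probe at 0.04) and MOS (0.11) had an unadjusted p under 0.05 in limma. Theca and stroma markers went both ways, with 6 above 0 and 9 below of 15 tested, from -1.09 for LUM to 0.65 for PDGFRA. TCF21 averaged -0.51, CNN1 -0.28 and NR2F2 -0.16. MYH11, a smooth muscle myosin and the 1 marker of that list with an unadjusted p under 0.05, read 0.54, 0.48 and 0.28 and exceeded background on 5 of the 6 arrays in the 68 h channel and 2 in the 20 h channel. Of the 18 theca and stroma genes, 6 exceeded background on all arrays at 68 h and 8 at 20 h, and their part in any result was not tested. Dim probes have compressed ratios, and these medians do not establish that other cell types were equally frequent in both groups.

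Against the other coasting times, which were also measured against 20 h RNA, 0 of 11044 genes differed at an adjusted p of 0.05 in limma (0.00%), either for 68 h minus 92 h or for 68 h minus 44 h. Several genes that were low at 68 h had other values at the other times. VCAN averaged -1.71 at 68 h, 0.48 at 44 h and -0.71 at 92 h, all over 20 h. PAM, which amidates peptide hormones, read -0.67, -0.70 and -0.76 at 68 h and averaged -0.01 at 44 h and 0.43 at 92 h. GLUL averaged -1.15 at 68 h, -0.01 at 44 h and 0.46 at 92 h. STX4 averaged 1.56 at 68 h, 0.15 at 44 h and 1.24 at 92 h. At 44 h the follicles were labelled with the same size as at 68 h. At 92 h they were labelled from 8 mm upward, with no upper limit. Time and follicle size therefore cannot be told apart between 68 h and 92 h.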

How the data were processed

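Cumulus cell RNA was amplified in 2 rounds, labelled with Cy3 and Cy5 and hybridised to Agilent slides, per the labels' protocols. The deposited scanner files hold raw spot intensity and local background for each channel, per the file headers. The deposited value table holds log2 ratios whose normalization is not given in the sources used here, and it served as an alternative. Image software is not given in the sources used here. Of 43794 gene probes, 21790 carried 1 gene symbol.

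Background was corrected by normexp (offset 50) and arrays by loess within each array, in limma 3.58.1 under R 4.3.3. Probes needed to exceed the negative controls by 2 SD on at least a share of 0.5 of the arrays of any 1 coasting time, which kept 27381 probes and 11044 genes, each by its brightest probe. Ratios were turned to 68 h over 20 h. The arrays of 1 replicate number in opposite dyes were averaged, which takes them as a technical dye swap, a reading the labels do not state outright. Slide 71 held both arrays of replicates 1 and 2. Replicate 3 had 68 h in Cy5 on slide 73 and in Cy3 on slide 72, so its dye orientation and slide cannot be told apart.

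limma was fitted to 9 values (3 replicates each of 44, 68 and 92 h) with Benjamini-Hochberg adjustment over all genes, two-sided. No pairing was used. Deviations of same-numbered replicates of different times from the mean of their time correlated with r from -0.35 to -0.03. Differently numbered replicates were not compared, so this cannot show whether replicates of different times shared cows or 20 h RNA. The fit treats the 9 values as independent, which was not tested. Alternatives were the background correction, scaling, probe filter, choice of probe, slide, dye, replicate left out, threshold and deposited table. The fitting script was tested on simulated data.

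The genes and the 39 lists were chosen with earlier results of these data known. The rule named per direction the 12 genes of smallest p with 1 sign in 3 replicates, and the 12 of largest ratio with 1 sign on 6 arrays, both without placeholder names. It also named the 4 of smallest p in each list, a set of follicular genes, and the 5 of smallest p for each difference between times. CCNB1, CDK1, PTTG1, UBE2C, PLK1, CDT1, RFC5, RPL11, RPS10, INSIG1, HMGCS1, SQLE, RSAD2, ISG15, CNN1, TCF21, TNPO1, SREK1, ALDH9A1, SIL1 and the placeholder genes, where outside the rule, were chosen after their values were seen. No sequence or genome position was used here.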

Additional observations from a re-analysis of the deposited data

How the results depend on the processing

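The count of 0 genes past an adjusted p of 0.05 depended on the processing. It was 4 with median centring, 376 with the slide as a fixed block, 4952 with the slide as a random block (consensus correlation -0.24), 62 over arrays with 68 h in Cy5 alone and 1818 over those with 68 h in Cy3 alone. The slide fits take the dye swaps of 1 replicate as separate arrays, and fits of 1 orientation keep the dye effect in the ratio. Leaving out 1 replicate of any time gave 0 to 21 genes (21 without 44 h replicate 2, 15 without 44 h replicate 3, 11 without 92 h replicate 2), leaving out the replicate 2 array with 68 h in Cy5 gave 7, a choice added after seeing the data, and a threshold of 0.10 gave 20. The fit with the replicate number as a block gave 0, and 1147 at an unadjusted p under 0.05, against 1217 without it. That count of 1217 became 1885 with no filter on dim probes, 2633 and 5719 with the slide as a fixed and a random block, 766 on slide 71, 395 on slides 72 and 73 and 3868 with 68 h in Cy3 alone. It was 1893 without the low replicate 2 array and 3145 over all kept probes, also added later, and ranged from 766 to 1578 with 1 replicate left out. The difference of 68 h minus 92 h had 1 gene without 92 h replicate 3. Of 6337 values of 245 named genes under the alternatives, 139 of 76 genes changed sign and 437 newly passed the threshold, and of 702 list medians 24 changed sign and 90 moved by over the SD of the replicate medians. The reversed values of the genes printed in the text follow, and list names and gene symbols stand before their value, a median for a list and a log2 ratio for a gene, and the cause was not tested. Without background correction reversed values were hexosamine and hyaluronan 0.015, meiotic arrest and cyclic nucleotides 0.0031, apoptosis and atresia 0.0057, FOXL2 0.011, HAS2 0.016, CDT1 -0.0056 and PLK1 -0.0079. Over arrays with 68 h in Cy5 alone reversed values were hexosamine and hyaluronan 0.0019, meiotic arrest and cyclic nucleotides 0.029, gap junctions and transzonal projections 0.077, apoptosis and atresia 0.033, endothelial markers 0.033, SCD 0.0079, ACSL1 0.085, LDHA 0.26, EIF4G2 0.38, PDIA6 0.12, NR5A1 -0.16, SERPINE2 0.27, NR2F2 0.27 and FOXL2 0.048. With that dye also reversed values were NPR2 -0.077, HAS2 0.13, GREM1 -0.047, MKI67 -0.081, CDT1 -0.38, PLK1 -0.15 and RFC5 -0.055. Over arrays with 68 h in Cy3 alone reversed values were cytosolic ribosomal proteins -0.070, RPL37 -0.044, RPS16 -0.45, FSHR 0.076, INHBA -0.47, FST 0.13, AMH 0.42, GJA1 -0.42, PGR -0.026 and UBE2C 0.29. With median centring reversed values were gap junctions and transzonal projections 0.0082 and apoptosis and atresia 0.00053. Among probes above background in both channels on 5 of 6 arrays reversed values were gap junctions and transzonal projections 0.0016. With the mean over probes reversed values were gap junctions and transzonal projections 0.0016 and apoptosis and atresia 0.0037. With the slide as a random block reversed values were gap junctions and transzonal projections 0.0043, apoptosis and atresia 0.0010, FST 0.088, MKI67 -0.0013 and CNN1 0.064. On slide 71 alone reversed values were gap junctions and transzonal projections 0.013, apoptosis and atresia 0.0090, FST 0.17, PGR -0.0033, MKI67 -0.019, CNN1 0.26 and IFI27 -0.37. Without the replicate 2 array with 68 h in Cy5 reversed values were gap junctions and transzonal projections 0.0090, FSHR 0.021, FST 0.036 and AMH 0.061. In the deposited table reversed values were apoptosis and atresia 0.015, endothelial markers 0.0029, FST 0.050, ESR2 -0.079, HAS2 0.14, MKI67 -0.0077 and PLK1 -0.0035. On slides 72 and 73 reversed values were FSHR 0.049, AMH 0.47, STAR 0.18, CYP11A1 0.38, ISG15 0.40, RPS10 0.039, RSAD2 0.26, SIL1 0.17, SREK1 -0.65 and TNPO1 -0.77. Leaving out 1 replicate at a time moved gap junctions and transzonal projections from -0.017 to 0.013, insulin and IGF system from -0.031 to 0.049, apoptosis and atresia from -0.012 to 0.0090, FSHR from -0.068 to 0.011, CYP19A1 from -0.96 to 0.30 and FST from -0.74 to 0.43. It also moved AMH from -0.45 to 0.31, STAR from -0.15 to 0.079, FOXL2 from -0.048 to 0.0093, NPR2 from -0.083 to 0.14, PGR from -0.0033 to 0.30 and TNFAIP6 from -0.43 to 0.018. It also moved MKI67 from -0.019 to 0.083, ALDH9A1 from -0.011 to 1.68, CNN1 from -0.58 to 0.26, IFI27 from -0.37 to 2.42, ISG15 from -1.19 to 0.64 and RSAD2 from -2.37 to 0.66. It also moved SIL1 from -1.48 to 0.078, SREK1 from -0.28 to 1.54 and TNPO1 from -0.83 to 1.21. The medians of mitosis and DNA replication changed sign under no alternative run, but without replicate 2 they were -0.24 and -0.17, against -0.49 and -0.37 with it. The number of arrays and dim probes limit precision, and ratios of probes close to background are compressed.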

Other observations

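Several genes had a ratio in replicate 2 far from those of the other replicates, on both of its dye orientations. TNPO1, a nuclear import receptor, read -0.88, 3.19 and -0.77 as log2 ratios of 68 h over 20 h, and SREK1, a splicing factor, 0.09, 2.99 and -0.65. ALDH9A1, an aldehyde dehydrogenase, read -0.11, 3.28 and 0.09. Its level was 13.21, 14.44 and 13.60 log2 units at 68 h in replicates 1, 2 and 3, and 13.32, 11.16 and 13.51 at 20 h. SIL1, a co-chaperone of HSPA5, read -0.01, -2.95 and 0.17, with a level of 9.08, 9.37 and 9.91 at 68 h and 9.09, 12.32 and 9.74 at 20 h. In SIL1 the 20 h sample of replicate 2 was the one apart, while in ALDH9A1 replicate 2 was lowest at 20 h and highest at 68 h. These genes were chosen for this pattern, and it is a description with no test.

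Probes without a gene symbol made up 12635 of the 27381 kept. At an unadjusted p under 0.05, 777 of them were higher at 68 h and 475 lower, beside 1036 higher and 857 lower among the 14746 kept probes with a symbol. What they report was not analysed here. Where a gene had several kept probes, 2381 of 3702 further probes (64.3%) had the sign of the brightest one, and 362 of 480 (75.4%) did for genes with an unadjusted p under 0.05.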
